A study of Mus musculus with 8 samples.

Results

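The myogenic transcription factors form a set of 9 genes out of the 49452 listed for brown adipose tissue (BAT) in this series. They were taken from the table by gene symbol, and all 9 symbols were found once: the myogenic regulatory factors Myf5, Myf6, Myod1 and Myog, the paired-box factors Pax3 and Pax7, the MEF2 factors Mef2a and Mef2c, and the cofactor Eya1. This depot produces heat, and the question of the study was which RNAs track its function when mice are placed in the cold or given a high-fat diet (HFD). RNA-Seq was done on BAT of 8 male C57BL/6 mice in 4 groups of 2. Mice kept at 22 °C (replicates 4 and 7) were compared with a group exposed to 4 °C over 24 h (replicates 2 and 11), and mice on normal chow (NCD, replicates 6 and 8) with mice on HFD (replicates 2 and 6). By the study's methods the mice of the temperature groups were 10 to 12 weeks old and those of the diet groups 32 weeks old after 28 weeks on their diet. The cold exposure comprised 20 h with food and 4 h of fasting, and the methods leave unclear if the 22 °C group had its food removed too. The labels name normal chow where the study describes a control diet. None of the mice is described as carrying a transgene.

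Brown adipocytes of the interscapular depot descend from somitic precursors that have expressed Myf5, Pax3 or Pax7, and they share this origin with skeletal muscle. In muscle, Pax3 and Pax7 mark progenitors and satellite cells, Myf5 and Myod1 commit these cells to the muscle fate, Myog drives their differentiation and Myf6 persists in the mature fibre. The regulatory factors are basic helix-loop-helix proteins that bind E-boxes together with E proteins, MEF2 factors are MADS-box proteins that act with them on muscle genes, and Eya1 is a coactivator of homeobox factors of the sine oculis family.

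Values are FPKM, which scale fragments to transcript length and to the mapped fragments of the library and so allow levels of different genes to be set side by side. Differences were tested with limma on log2(FPKM + 1) over all autosomal genes that reached 0.1 FPKM in 2 or more of the 4 compared libraries, and a gene was past threshold at a Benjamini-Hochberg adjusted p under 0.05 and a log2 fold change of 1 or more in either direction. Each group holds 2 mice, so p-values rest on the spread between 2 libraries a group, and the smallest exact two-sided permutation p of 2 against 2 is 0.333. In whole BAT, fewer cells of a type and less RNA per cell cannot be told apart. The libraries split across the groups by the satellite-repeat gene Gm10800, which was at 447 FPKM or more in a single library per group, called high-satellite (replicate 4 of 22 °C, 11 of 4 °C, 8 of NCD and 2 of HFD), and at 4.13 FPKM or less in the other. In 3 libraries (both at 22 °C and NCD replicate 6) every X and Y gene is listed at 0, so an exact 0 can be a missing estimate. At most 1 mitochondrial gene is above 0 in these libraries, against 15 in each of the others. This gap covers both 22 °C libraries and neither cold one, so any effect of it on the deposited values cannot be told apart from that of the cold. Ucp1, the uncoupling protein that defines brown fat, was at 699 to 6462 FPKM in the 8 libraries. The summed FPKM of 11 skeletal muscle fibre markers ran from 15.5 to 4561.

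Promoters were available for 5 of the 9 genes (Myf5, Myog, Pax7, Mef2a and Mef2c) from RefSeq on GRCm38.p6, as windows from 250 bases before to 50 after the transcription start. Those of Myog and Myf5 are shown because these genes moved together across the libraries, and that of Mef2a because its level did not follow theirs. Capitals mark matches to the E-box CANNTG, to the MEF2 site or to the TATA box TATAAA on either strand.
Myog: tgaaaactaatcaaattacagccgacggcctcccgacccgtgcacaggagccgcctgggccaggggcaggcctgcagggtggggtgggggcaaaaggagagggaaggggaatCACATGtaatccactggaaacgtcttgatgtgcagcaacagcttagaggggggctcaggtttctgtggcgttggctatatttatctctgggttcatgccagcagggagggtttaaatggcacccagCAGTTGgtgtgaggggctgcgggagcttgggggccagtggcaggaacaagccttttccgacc
Myf5: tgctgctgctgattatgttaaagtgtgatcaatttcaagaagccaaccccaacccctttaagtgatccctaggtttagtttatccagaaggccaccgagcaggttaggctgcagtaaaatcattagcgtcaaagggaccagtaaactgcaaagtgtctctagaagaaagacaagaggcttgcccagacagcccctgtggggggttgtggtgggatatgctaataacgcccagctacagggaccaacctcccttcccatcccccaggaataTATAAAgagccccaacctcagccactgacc
Mef2a: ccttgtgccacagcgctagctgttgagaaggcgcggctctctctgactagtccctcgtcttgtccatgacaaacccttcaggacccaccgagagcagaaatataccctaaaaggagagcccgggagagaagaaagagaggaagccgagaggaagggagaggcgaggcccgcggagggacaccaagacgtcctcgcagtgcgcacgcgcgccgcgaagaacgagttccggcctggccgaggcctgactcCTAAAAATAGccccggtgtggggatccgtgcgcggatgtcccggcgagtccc
The Myog window (chr1:134289754-134290053, forward strand) held 2 E-boxes, CACATG starting at position -138 and CAGTTG starting at -12 from the start site. The Myf5 window (chr10:107486085-107486384, reverse strand) held TATAAA at position 21 and no E-box. The Mef2a window (chr7:67372809-67373108, reverse strand) held 1 match to the MEF2 site, CTAAAAATAG at position -2, and no E-box. Among 32851 promoter windows, 72.3% held an E-box, 3.19% a MEF2 site and 13.6% TATAAA. The absence of a match says only that these letters are not in the window.

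The members fell into 3 classes by level. Mef2a and Mef2c were expressed in all 8 libraries at 3.58 to 11.4 FPKM. Myf6 and Eya1 spanned a wide range, from 0 to 8.21 and from 0.0951 to 1.12 FPKM. The other 5 stayed below 0.65 FPKM throughout, and Myf5, Pax3 and Pax7 at or below 0.11. From the value of 1 fragment in each library, the MEF2 genes rested on 2017 fragments or more per library and Eya1 on 47.8 to 424. Pax7 reached 3 fragments in 5 libraries, Pax3 in 4, Myf5 in 5, and Myf6, Myod1 and Myog in 7, the exception for these 3 being HFD replicate 6. These equivalents assume the longest transcript and cover counting error only.

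**Figure D1:**
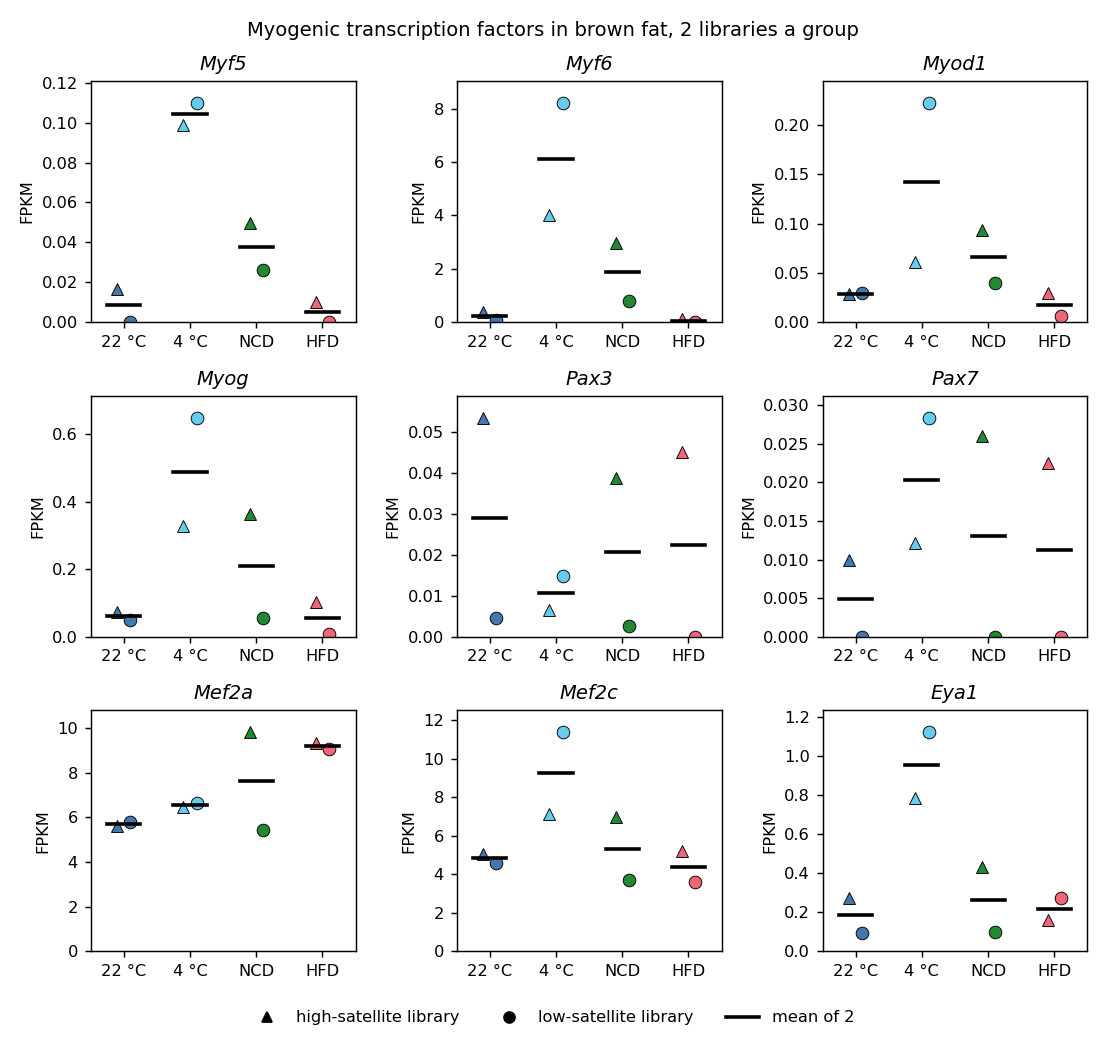
FPKM of each of the 9 genes in the 8 libraries by group, with the mean of 2 libraries as a bar, triangles for high-satellite and circles for low-satellite libraries, and an axis of its own for each gene. The 2 libraries at 4 °C lie above both at 22 °C for 8 genes, Pax3 being the exception, and only Mef2a is highest on average under HFD.

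The first comparison asked how these factors respond to 24 h at 4 °C. Myf6 rose, and it was the 1 member past threshold among the 5 that could be tested. Of all 17470 genes tested, 252 (1.44%) were past threshold. Both cold libraries lay above both libraries at 22 °C for 8 of the 9 members, against 22.4% of the 33787 autosomal genes above 0 in any of the 4 libraries, and no member had both below, against 17.5% of those genes. At 22 °C Myog had no library at 0.1 FPKM and Myf6 and Eya1 had 1 each, so these 3 genes entered the test through their cold libraries. Myf5, Myod1, Pax3 and Pax7 were under the filter.

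Myf6 (ENSMUSG00000035923, chromosome 10, 107492860 to 107494729, reverse strand), the factor of mature fibres, was at 0.370 and 0.0909 FPKM at 22 °C and at 8.21 and 4.02 FPKM at 4 °C. The lower cold library exceeded the higher one at 22 °C by 10.9-fold. The log2 fold change of Myf6 was 2.48 with an SE of 0.32 (adjusted p = 0.0442, limma). The rise was 1.87 on the log2 scale between the high-satellite libraries and 3.08 between the low-satellite ones. Without 4 °C replicate 2 the log2 fold change was 2.04 with an adjusted p of 0.109, and over 17 alternatives the adjusted p ran from 8.74e-07 to 0.170. The call was also lost with no filter on low values (adjusted p = 0.170), without an intensity trend (0.0835) and with a pseudocount of 0.01 (0.0572).

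Myog (ENSMUSG00000026459, chromosome 1, 134289989 to 134292548, forward strand), the differentiation factor, was at 0.0723 and 0.0494 FPKM at 22 °C and at 0.649 and 0.327 FPKM at 4 °C. The groups did not overlap, yet the log2 fold change of 0.48 (SE 0.11) was not past threshold with an adjusted p of 0.0847 in limma. Median centring brought it to 0.22. On the deposited scale the mean FPKM was 8.02-fold higher at 4 °C, a gap that the added 1 compresses. Myod1 (ENSMUSG00000009471, chromosome 7, 46376474 to 46379099), which commits cells to muscle, was at 0.0284 and 0.0291 FPKM at 22 °C and at 0.222 and 0.0615 FPKM at 4 °C. The difference rested mostly on 4 °C replicate 2, where 34.1 fragment equivalents stood against 11.04 in the other cold library and 5.94 to 5.99 at 22 °C.

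Myf5 (ENSMUSG00000000435, chromosome 10, 107482908 to 107486134), the marker of the shared lineage, lies 6725 bases from Myf6 on the same strand. It was at 0.0167 and 0 FPKM at 22 °C and at 0.110 and 0.0989 FPKM at 4 °C. These values correspond to 3.99 and 0 fragments against 19.1 and 20.1, so the cold libraries were higher but the level stayed far below that of Myf6. Pax7 (ENSMUSG00000028736, chromosome 4, 139737062 to 139833528), the satellite cell factor, was at 0.00989 and 0 FPKM at 22 °C and at 0.0284 and 0.0121 FPKM at 4 °C. Its lower cold library and its higher library at 22 °C were 7.25 and 6.99 fragment equivalents, which differ by less than the counting error. Pax3 (ENSMUSG00000004872, chromosome 1, 78101267 to 78197134), which acts in the embryonic somite, was at 0.0536 and 0.00446 FPKM at 22 °C and at 0.0148 and 0.00652 FPKM at 4 °C. The groups overlapped, and 24.6 fragment equivalents in 22 °C replicate 4 were the highest value of Pax3 in any library. Median centring, which takes the same amount from every gene's log2 difference, turned the sign for Myf5 (-0.13), Myod1 (-0.11) and Pax7 (-0.24), and the 3 other scalings kept it (0.11 to 0.14, 0.11 to 0.14 and 0.015 to 0.027).

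Neither MEF2 gene was past threshold. Mef2c (ENSMUSG00000005583, chromosome 13, 83504034 to 83667080) was at 5.06 and 4.60 FPKM at 22 °C and at 11.4 and 7.16 FPKM at 4 °C. Both cold libraries were above both others, at an adjusted p of 0.148 for a log2 fold change of 0.79 with an SE of 0.25 (limma). Without 4 °C replicate 2 the log2 fold change was 0.49, and under the 4 other scalings it was 0.40 to 0.53. It was 0.43 between the high-satellite and 1.15 between the low-satellite libraries. Mef2a (ENSMUSG00000030557, chromosome 7, 67231163 to 67372858) was at 5.62 and 5.80 FPKM at 22 °C and at 6.67 and 6.45 FPKM at 4 °C. Its log2 fold change of 0.17 was as large as its SE of 0.17 (adjusted p = 0.581, limma), and it turned to between -0.21 and -0.09 under the 4 other scalings. For expressed mRNA genes the median change in log2 was 0.21 in the deposited values and -0.05 once libraries were centred, and the value of Mef2a lay below the former.

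Eya1 (ENSMUSG00000025932, chromosome 1, 14168954 to 14310235) was at 0.272 and 0.0951 FPKM at 22 °C and at 1.12 and 0.785 FPKM at 4 °C. The lower cold library was 2.89-fold above the higher one at 22 °C. The log2 fold change was 0.72 (SE 0.13) with an adjusted p of 0.0584, so the gene missed both criteria. The adjusted p ran from 0.00614 to 0.204 over 16 alternatives and was under 0.05 in 8 of them, where the log2 fold change was 0.59 to 0.83 and so under the fold threshold, and median centring brought the log2 fold change to 0.46.

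**Figure D2:**
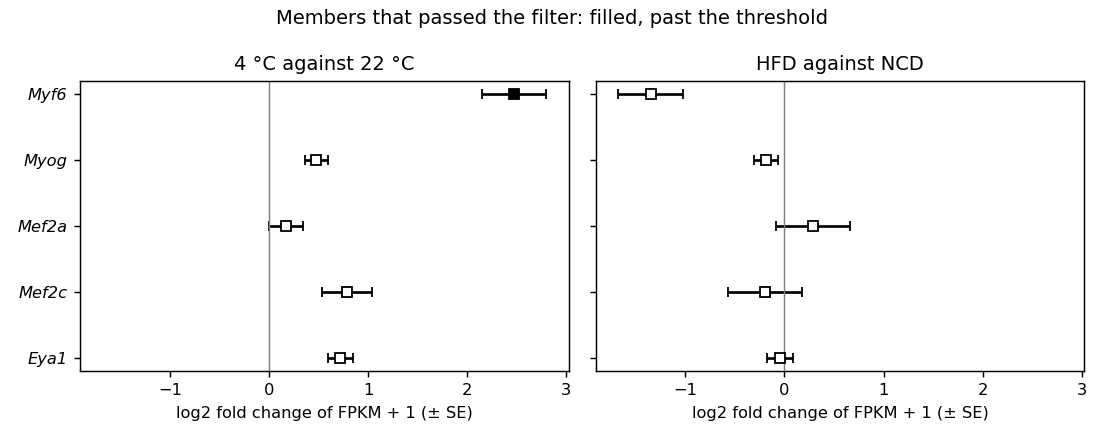
Log2 fold change of FPKM + 1 with its standard error (limma, 2 libraries a group) for the 5 members that passed the filter, at 4 °C against 22 °C and under HFD against NCD, filled where past threshold. Only Myf6 at 4 °C is filled, at 2.48, and its value under HFD is -1.35.

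The 11 markers of muscle fibres found in the table, among them Ckm, Mylpf, Tnnt3 and Atp2a1, had higher values in both cold libraries, with log2 fold changes of 2.33 to 3.69 and none past threshold (adjusted p 0.0633 to 0.109). Their summed level was 117 to 569 FPKM at 22 °C and 1981 to 4561 FPKM at 4 °C, and none of the 11 was at 0 in any library. The satellite cell markers Chrdl2, Fgfr4, Calcr and Megf10 did not exceed 0.22 FPKM in any library, and their summed level with Vcam1 was 1.97 to 2.35 FPKM at 22 °C and 3.22 to 5.08 at 4 °C, of which Vcam1, not specific to satellite cells, made up 1.92 to 2.14 and 2.92 to 4.81 FPKM. Smooth muscle markers summed to 22.2 to 26.4 FPKM at 22 °C and 53.3 to 70.2 FPKM at 4 °C, with none of 4 past threshold. Brown adipocyte markers summed to 6081 to 6245 and 13985 to 16260 FPKM, with 3 of 8 past threshold, all higher. Most of this sum was Ucp1 and Fabp4, the latter at 3472 to 3769 and 6918 to 7595 FPKM. Both cold libraries were higher for 7 of the 8 and lower for 1, Adipoq, at 717 and 491 FPKM at 22 °C and 395 and 302 FPKM at 4 °C. Summed levels of macrophage (58.2 to 81.0 and 63.1 to 132 FPKM), endothelial (168 to 170 and 175 to 219 FPKM) and B cell markers (0.721 to 0.937 and 0.302 to 0.311 FPKM) had no gene past threshold. The part of fibres or other cells in the values of the myogenic factors was not tested.

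The second comparison asked how the factors respond to HFD. No member was past threshold in limma (0 of 5 tested, 1 at an unadjusted p under 0.05), where 12 of 17535 genes were (0.0684%). Both HFD libraries lay below both NCD libraries for Myf5, Myf6 and Myod1, 3 of 9 members, against 4.98% of the 34203 autosomal genes above 0 in any of the 4 libraries. No member had both HFD libraries above, against 25.3% of those genes.

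Myf6 was at 0.803 and 2.97 FPKM under NCD, at 0.0999 FPKM in HFD replicate 2 and listed at 0 in HFD replicate 6. The lower NCD library exceeded the higher HFD library by 8.04-fold. It fell short of the threshold, with an adjusted p of 0.169 in limma for a log2 fold change of -1.35 (SE 0.33). It was -1.85 between the high-satellite and -0.85 between the low-satellite libraries. The adjusted p ran from 0.000561 to 0.578 over 14 alternatives, and the gene passed with library type as a covariate (0.0125, but 0.0870 with this covariate over all 8 libraries), without HFD replicate 2 (0.000561) and without HFD replicate 6 (0.0274). Under HFD no library reached 0.1 FPKM, so Myf6 entered this test through its NCD libraries alone, and without either of them it was under the filter.

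Myf5 was at 0.0262 and 0.0495 FPKM under NCD, at 0.0103 FPKM in HFD replicate 2 and listed at 0 in HFD replicate 6. Myod1 was at 0.0395 and 0.0932 FPKM under NCD and at 0.0290 and 0.00644 FPKM under HFD. Both genes were lower under HFD in both libraries, on at most 15.01 fragment equivalents a library. Myog was at 0.0566 and 0.364 FPKM under NCD and at 0.104 and 0.00820 FPKM under HFD. Here the groups overlapped, and the adjusted p was 0.536 at a log2 fold change of -0.19 (SE 0.12).

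Pax3 was at 0.00270 and 0.0387 FPKM under NCD, at 0.0451 FPKM in HFD replicate 2 and listed at 0 in HFD replicate 6. Pax7 was at 0.0260 FPKM in NCD replicate 8 and 0.0226 FPKM in HFD replicate 2, and listed at 0 in the other 2 libraries. In both genes the groups overlapped, and the high-satellite library was above the low-satellite one under NCD, under HFD and at 22 °C and below it at 4 °C. The part of library type in these values was not tested.

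Mef2a was at 5.44 and 9.82 FPKM under NCD and at 9.35 and 9.05 FPKM under HFD. The HFD libraries lay between the NCD libraries, and limma gave an adjusted p of 0.766 (log2 fold change 0.29, SE 0.37), with its sign turning to -0.06 and -0.07 after quantile normalization and median centring and to -0.09 without NCD replicate 6. Mef2c was at 3.69 and 6.97 FPKM under NCD and at 5.21 and 3.58 FPKM under HFD, with an adjusted p of 0.850 (log2 fold change -0.20, SE 0.37). Eya1 was at 0.0989 and 0.430 FPKM under NCD and at 0.161 and 0.273 FPKM under HFD, with an adjusted p of 0.907 (log2 fold change -0.04, SE 0.13). In all 3 genes the groups overlapped.

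Muscle fibre markers were lower in both HFD libraries for 10 of 11 genes, with log2 fold changes of -3.93 to -1.44, none past threshold (adjusted p 0.138 to 0.534). Their summed level was 576 to 1525 FPKM under NCD and 15.5 to 185 FPKM under HFD. Macrophage markers were higher in both HFD libraries for 6 of 6 genes, from 45.3 to 121 FPKM summed under NCD to 236 to 276 FPKM under HFD, with none past threshold. Of the satellite cell markers only Vcam1 could be tested, and it made up 1.61 to 3.26 FPKM of a sum of 1.83 to 3.29 under NCD and 5.05 to 6.43 of 5.18 to 6.45 under HFD, while Chrdl2, Fgfr4, Calcr and Megf10 overlapped between the groups. Summed levels of smooth muscle (11.1 to 16.6 and 30.03 to 36.1 FPKM), endothelial (103.1 to 126.9 and 170.9 to 194.8 FPKM), brown adipocyte (7225 to 12505 and 7997 to 10899 FPKM) and B cell markers (0.649 to 1.04 and 0.582 to 0.655 FPKM) likewise had no gene past threshold. The brown adipocyte sums overlapped, but single markers split in both directions. Elovl3 (234 and 118 against 18.1 and 17.8 FPKM) and Cidea (1116 and 760 against 464 and 412 FPKM) were lower in both HFD libraries. Ppargc1a (4.39 and 5.86 against 7.41 and 6.66 FPKM) and Dio2 (12.7 and 4.87 against 17.4 and 13.5 FPKM) were higher in both. The part of these cell types in the values of the myogenic factors was not tested. In the label descriptions NCD replicate 6 carries another identifier prefix than the other 3 libraries of this comparison. The prefix of NCD replicate 6 is that of all temperature libraries, and what it stands for is not stated. Without that library the log2 fold changes were -0.37 for Myog (adjusted p = 0.00585, under the fold threshold), -0.58 for Mef2c and -0.23 for Eya1.

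Ordered by mean over the 4 groups, Myf6 and Myf5 were highest at 4 °C, then under NCD, then at 22 °C, then under HFD, and only 22 °C and HFD overlapped in this order. Myod1 and Myog had the same order of means. Neighbours overlapped for Myog throughout, and for Myod1 between all neighbours but NCD and 22 °C. Mef2c and Eya1 were highest at 4 °C, apart from all other groups, with no separation among the next 3. Mef2a was highest under HFD and lowest at 22 °C, and of its neighbours in this order only 4 °C and 22 °C were apart. Age, diet and fasting differ between the temperature and diet groups, so the order across them is a description.

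To set each factor beside the fibre markers in every library, a muscle marker score was taken as the mean log2(FPKM + 1) of the 11 markers. The score was 5.20 and 3.18 in the 22 °C libraries, 7.95 and 6.88 in the cold ones, 5.12 and 6.64 under NCD and 3.79 and 1.11 under HFD. Across the 8 libraries Myf6 followed the score most closely among the members that passed a mean of 0.1 FPKM, with a Pearson r of 0.90 (exact permutation p = 0.00243) and a Spearman rho of 0.98 (exact p = 0.000397). Adjusted over 17418 genes the p of r was 0.204. The exact permutation treats the 8 libraries as exchangeable, although they share groups and library types. Its p-values, here and for the other members, therefore do not separate a relation within groups from differences between groups. No gene reached an adjusted p under 0.05 (0% of those tested by exact permutation), whereas 2023 had an unadjusted p under 0.05, of which 511 were positive. When HFD replicate 6 and 4 °C replicate 2, the 2 libraries farthest from the median score, were left out, the r of Myf6 was 0.94 (exact p = 0.00972).

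Myog had an r of 0.86 (exact p = 0.00640, adjusted 0.252) and a rho of 0.90 (exact p = 0.00456). Mef2c had an r of 0.83 (exact p = 0.01004, adjusted 0.276) and a rho of 0.88 (exact p = 0.00724). Without the 2 farthest libraries these were 0.83 (exact p = 0.0792) and 0.67 (exact p = 0.128), on 6 libraries instead of 8, so the r of Mef2c fell while that of Myog was nearly as large. Eya1 had an r of 0.73 (exact p = 0.0407, adjusted 0.407) and a rho of 0.74 (exact p = 0.0458). Its r was 0.84 (exact p = 0.0292) without the 2 farthest libraries, and leaving out any 1 of 6 single libraries brought the exact p over 0.05 (r from 0.58 to 0.90 over all 8 omissions). In the plot of levels against the score, HFD replicate 6 stood above the trend of Eya1, with the lowest score and 0.273 FPKM.

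Mef2a had an r of -0.22 (exact p = 0.603, adjusted 0.919) and a rho of 0.02 (exact p = 0.977). The r was 0.17 (exact p = 0.735) without the 2 farthest libraries, so its sign changed. Of the sparse genes, under a mean of 0.1 FPKM, Myf5 had an r of 0.87 (exact p = 0.00298; rho 0.97, exact p = 0.000595) and Myod1 an r of 0.78 (exact p = 0.0177; rho 0.81, exact p = 0.0218). Without the 2 farthest libraries these were 0.88 (exact p = 0.00833) and 0.80 (exact p = 0.0556). With median centring the r was 0.55 for Myf5 (exact p = 0.156) and 0.63 for Myod1 (exact p = 0.0986). Pax7 had an r of 0.67 (exact p = 0.0735; rho 0.76, exact p = 0.0414), which was 0.38 (exact p = 0.444) without the 2 farthest libraries. Pax3 had an r of 0.21 (exact p = 0.608; rho 0.43, exact p = 0.299), which was 0.02 (exact p = 0.932) without them. These were 9 relations, and each library type holds 4 libraries, too few for a correlation within it.

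**Figure D3:**
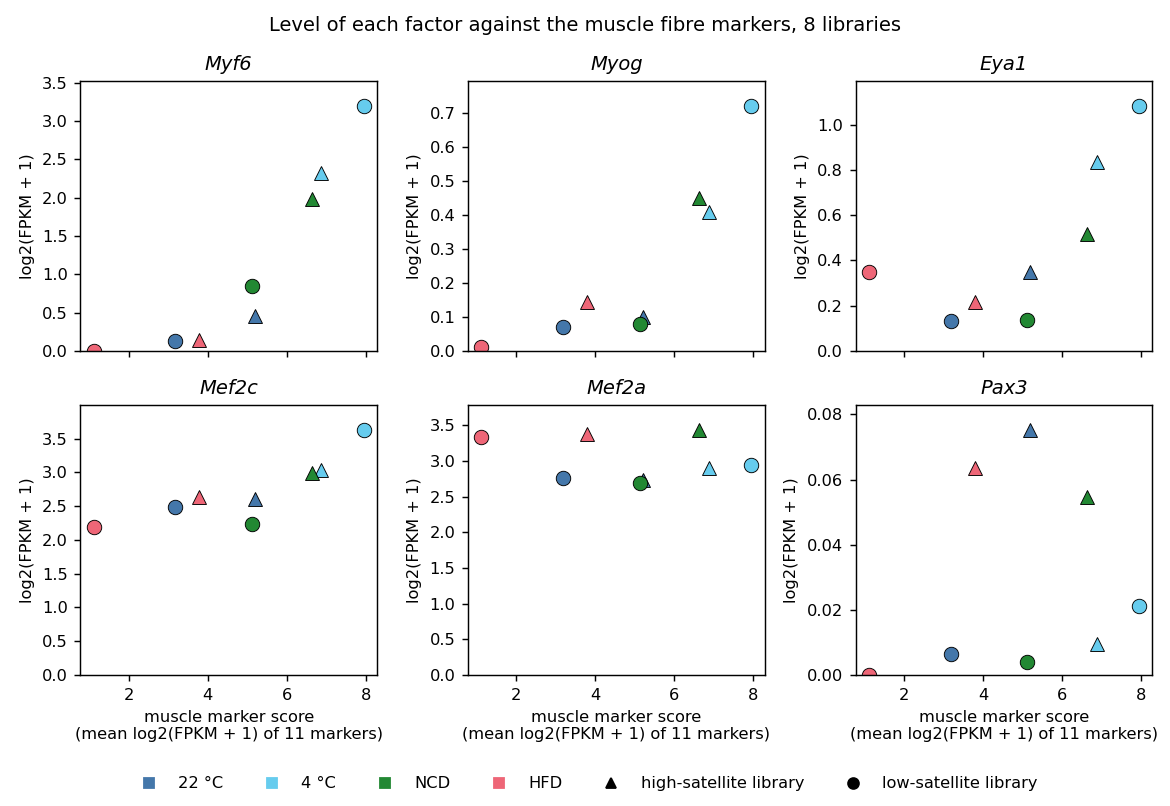
Log2(FPKM + 1) of 6 of the 9 genes against the muscle marker score (mean log2(FPKM + 1) of 11 fibre markers) in the 8 libraries, colored by group and shaped by library type. Myf6, Myog and Mef2c are highest in the 3 libraries with scores of 6.64 to 7.95, whereas Mef2a is spread over 5.44 to 9.82 FPKM along the whole range of scores.

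Among themselves the members formed 36 pairs, whose correlations are given as a description, since the 8 libraries share groups and library types. The 15 pairs of Myf5, Myf6, Myod1, Myog, Mef2c and Eya1, a grouping made after the values were seen, had Pearson r of 0.82 to 0.97. Pax7 had 0.59 to 0.83 with these 6. Mef2a had -0.11 to 0.46 and Pax3 -0.12 to 0.56 with the 8 other members. Both were apart from the main group, but Pax3 rested on 24.6 fragment equivalents or fewer and Mef2a on 3226 or more.

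**Figure D4:**
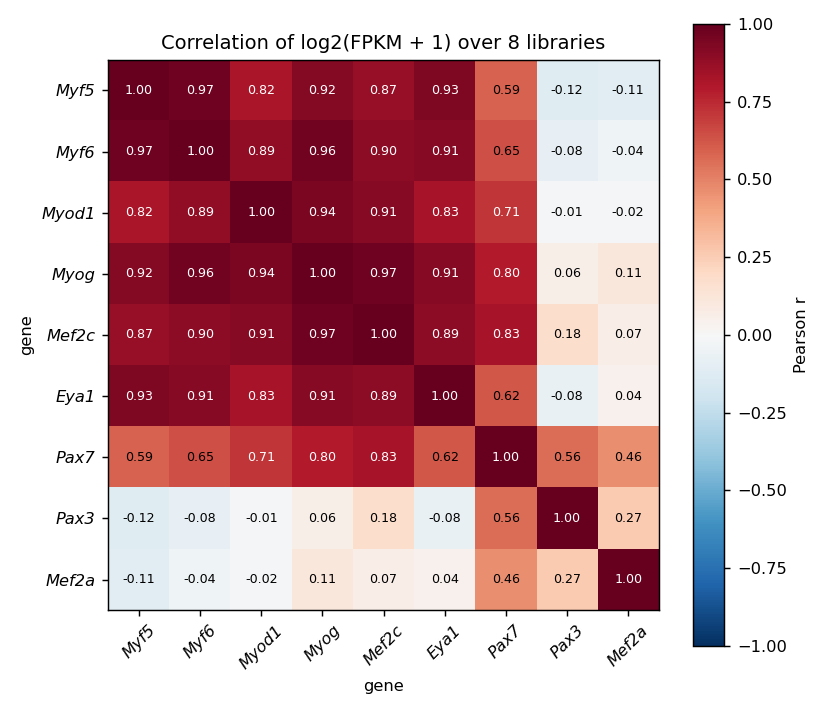
Pearson r of log2(FPKM + 1) over the 8 libraries for every pair of the 9 genes, from -1 in blue to 1 in red, with the value in each cell. Myf5, Myf6, Myod1, Myog, Mef2c and Eya1 have r of 0.82 to 0.97 with each other, and the rows of Pax3 and Mef2a are pale.

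For the 5 members with a mean of 0.1 FPKM or more, which leaves out Myf5, Myod1, Pax3 and Pax7, the most similar genes were sought among 10856 other autosomal genes averaging 1 FPKM or more, by Pearson r over the 8 libraries. The nearest to Myf6 were Cap2, Trim54 and 2310002L09Rik (r 0.996 for each), and those to Myog were Tmod1 (0.988), Mypn (0.985) and Tacc2 (0.980). Mef2c was closest to Tacc2 (0.968), Speg (0.963) and Ppp1r12b (0.960), and Eya1 to Ppp1r12b (0.980) and Ttll7 (0.973). Mef2a was closest to Akap13 (0.998), Crkl (0.963) and Reep3 (0.963).

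Partners and targets of the factors were taken from 6 lists. Of the partners of the regulatory factors, 7 E protein and Id genes were tested and none was past threshold in either comparison. Id2, an inhibitor that sequesters E proteins, was at 9.32 and 6.86 FPKM at 22 °C and at 3.78 and 3.57 FPKM at 4 °C (log2 fold change -0.95, adjusted p = 0.0780). It passed under 3 of the other scalings, with log2 fold changes of -1.35 to -1.20. The E protein gene Tcf4 was at 11.4 and 11.3 FPKM against 17.6 and 15.1 FPKM in the cold (adjusted p = 0.199). Under HFD Tcf4 and Id3 had log2 fold changes of 0.51 and 1.01 (adjusted p 0.559 and 0.370). The value of Id3 was 0.63 without NCD replicate 8 and 1.39 without NCD replicate 6. Among MEF2 relatives and the class IIa deacetylases that bind them, 5 of 6 were tested and none was past threshold. Mef2d and Hdac4 had log2 fold changes of 0.70 and 0.42 in the cold (adjusted p 0.159 and 0.284), and Hdac5 and Hdac7 of 0.57 and 0.52 under HFD (adjusted p 0.502 and 0.398). Under the 4 other scalings the cold values were 0.31 to 0.44 for Mef2d, 0.082 to 0.25 for Hdac4 and 0.072 to 0.23 for Tcf4. Without 4 °C replicate 2 the cold value of Hdac4 was 0.24.

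Of the sine oculis homeobox genes and their Eya and Dach cofactors, 7 of 8 were tested and none was past threshold in either comparison. Six5, a homeobox factor, was at 1.88 and 2.23 FPKM at 22 °C and at 0.614 and 0.638 FPKM at 4 °C (log2 fold change -0.91, adjusted p = 0.0511). It passed under 3 of the other scalings (adjusted p 0.0164 to 0.0348) and with a pseudocount of 0.1 (0.0471). Eya2, a relative of Eya1, was at 0.108 and 0.274 FPKM under NCD and at 2.37 and 3.17 FPKM under HFD. The adjusted p was 0.0685 in limma for a log2 fold change of 1.66 (SE 0.21), and over 17 alternatives it ran from 2.83e-07 to 0.527. The gene passed in 8 of them, among which were the 4 that left out 1 library (up to 0.000409) and library type as a covariate (0.00455), and not in the other 9, among which were the 4 scalings (0.0670 to 0.188), no filter (0.527) and no intensity trend (0.310). Eya3 had a log2 fold change of 0.52 (adjusted p = 0.468). The direction of Eya2 under HFD was not seen in Eya1, whose groups overlapped, and this contrast was not tested.

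Of the muscle progenitor factors, 6 of 8 were tested in the cold and 5 of 8 under HFD, with none past threshold. Pitx3 was at 0.179 and 0.318 FPKM at 22 °C and at 2.86 and 1.18 FPKM at 4 °C (log2 fold change 1.22, adjusted p = 0.0831). Without 4 °C replicate 2 its log2 fold change was 0.81, and with any other single library left out it was 1.14 to 1.63. Among other alternatives, Pitx3 passed rescaled without mitochondrial genes, rRNA genes and Ucp1 (adjusted p = 0.00407, limma) and with all 8 libraries in 1 fit (0.0364). It did not pass with quantile normalization, median centring or rescaling to the autosomal sum. Under HFD the somitic homeobox genes Meox1 and Meox2 had log2 fold changes of 1.09 and 0.68 (adjusted p 0.234 and 0.365). The value of Meox1 was 0.71 without NCD replicate 8 and 1.47 without NCD replicate 6. Of 12 genes of muscle differentiation and fusion, 9 were matched and 5 could be tested in the cold. Musk, the receptor kinase of the neuromuscular junction, rose past threshold, from 0.106 and 0.0390 FPKM at 22 °C to 1.41 and 1.04 FPKM at 4 °C (log2 fold change 1.05, adjusted p = 0.0304). Only 1 library at 22 °C reached 0.1 FPKM, so Musk entered the test through its cold libraries. It lost its call under 6 of 17 alternatives, namely without 4 °C replicate 2 (adjusted p = 0.108), with no filter (0.170), without an intensity trend (0.0818), with a pseudocount of 0.01 (0.0545), and after median centring and rescaling to the autosomal sum (log2 fold change 0.79 and 0.92). Under HFD 3 could be tested, and Myl4 and Chrnb1 had log2 fold changes of 1.04 and 0.65 (adjusted p 0.225 and 0.245). The value of Myl4 was 0.69 without NCD replicate 8 and 1.40 without NCD replicate 6.

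Of the genes that commit precursors to brown fat, all 7 were tested and none was past threshold in either comparison. Cebpb was at 32.1 and 49.2 FPKM at 22 °C and at 100.8 and 68.4 FPKM at 4 °C (log2 fold change 1.04, adjusted p = 0.139). Its log2 fold change was 0.51 with quantile normalization and 0.60 and 0.63 with the rescalings. Prdm16, the factor that steers Myf5-lineage cells from muscle to brown fat, was at 4.54 and 8.03 FPKM at 22 °C and at 3.12 and 3.72 FPKM at 4 °C (log2 fold change -0.68, adjusted p = 0.216). Both cold libraries of Prdm16 were below both others, and its log2 fold change was -0.33 without 22 °C replicate 7, -1.03 without 22 °C replicate 4 and -1.05 to -0.90 under the 4 other scalings. Under HFD Pparg and Cebpb had log2 fold changes of 0.44 and 0.39 (adjusted p 0.777 and 0.7504), with overlapping groups. The value of Cebpb was 0.016 without HFD replicate 6 and 0.77 without HFD replicate 2. The 4 other scalings also lowered the values under HFD, to 0.085 to 0.28 for Pparg, 0.037 to 0.23 for Cebpb, 0.15 to 0.35 for Tcf4, 0.66 to 0.85 for Id3, 0.22 to 0.42 for Hdac5, 0.17 to 0.41 for Hdac7, 0.16 to 0.38 for Eya3, 0.32 to 0.54 for Meox2, 0.69 to 0.95 for Myl4 and 0.29 to 0.55 for Chrnb1. The median log2 fold changes of the 6 lists, in the order given here, were -0.15, 0.05, 0.13, 0.51, 0.73 and 0.12 in the cold, against 0.07 over all genes tested, and in the cold the values of 0.51 and 0.73 include genes that entered the test through their cold libraries. They were 0.22, 0.48, 0.20, 0.24, 0.65 and 0.19 under HFD, against 0.18 over all genes tested. With library type as a covariate Pitx3 (adjusted p = 0.0307) and Cebpb (0.0423) passed in the cold and Id3 (0.0153), Meox1 (0.0108) and Myl4 (0.0221) under HFD, besides Eya2.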

How the data were processed

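BAT of 8 mice was profiled with rRNA-depleted, directional, paired-end libraries. The authors mapped the reads to GRCm38 (GRCm38.p5 in the submitters' processing notes) with TopHat2 2.0.10 and deposited FPKM per gene and library from Cufflinks (2.2.1 in those notes). Whether FPKM used strand is not given in the sources used here. DESeq2 was named by the authors, and counts were not used here. No other columns of per-sample values were present. Of 49452 genes, 49109 matched GENCODE M21.

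Tests used limma 3.58.1 in R 4.3.3 (lmFit, eBayes with trend) on log2(FPKM + 1), autosomes only, on the 4 libraries compared, two-sided, which understates changes of low genes. The limma step was tested on simulated data with the same noise for every gene and no split by library type. The shifted genes were not sparse, so the outcome does not extend to the sparse members. Correlations used exact permutation over 8 libraries (NumPy 2.4.6, SciPy 1.17.1, pandas 2.3.3). Depth is not stated in the table. Low FPKM values fell within 0.1 of whole fragments in 97.9% to 98.7% of cases, and 1 fragment on 2000 bases was 0.00438 to 0.00602 FPKM. Precision is limited by these fragments and by 2 libraries a group.

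Members and lists were chosen with earlier results of these data known. Named were all members, of each partner list every gene past threshold or else the 2 with the largest log2 fold change in either direction, and the 3 genes most like each member that averaged 0.1 FPKM or more, apart from a few genes that are not reported here. Alternatives changed the pseudocount, filter, scaling, genes kept, libraries fitted, covariate and trend.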

Additional observations from a re-analysis of the deposited data

How the results depend on the processing

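Myf6 in the cold kept its direction under all 17 alternatives and its call under 13, as given with its values. The numbers of genes past threshold moved far more. In the cold, 252 genes (213 higher, 39 lower) became 475 with a pseudocount of 0.1 and 142 with 0.01, 529 with a filter of 1 FPKM, 489 (312 higher, 177 lower) with quantile normalization, 757 (493 higher, 264 lower) with median centring, 581 (310 higher, 271 lower) rescaled to the autosomal sum, 549 (353 higher, 196 lower) rescaled without mitochondrial genes, rRNA genes and Ucp1, 920 with X, Y and mitochondrial genes, 439 with all 8 libraries in 1 fit, 859 with library type as a covariate and 869 with both, the last chosen after seeing the data. Under limma it was 0 with no filter and 0 without an intensity trend, where 4689 and 4170 genes had an unadjusted p under 0.05. The 920 genes with X, Y and mitochondrial genes kept were 829 higher and 91 lower. Every X and Y gene is listed at 0 in both 22 °C libraries, against 781 and 840 X genes above 0 in the cold ones. Higher calls on these chromosomes can therefore rest on missing estimates at 22 °C, and this count is not comparable with the others. Leaving out 1 library gave 1 (without 4 °C replicate 2) to 766 genes.

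Under HFD, 12 genes (9 higher, 3 lower) became 24 with a filter of 1 FPKM, 45 (23 higher, 22 lower) with median centring, 75 with all 8 libraries, 744 with library type as a covariate and 439 with both. Under limma it was 0 with no filter, quantile normalization, either rescaling, X, Y and mitochondrial genes kept, or no trend, where 2490, 2126, 2338, 2301, 2533 and 2348 genes had an unadjusted p under 0.05. Leaving out 1 library gave 99 to 727 genes (727 without NCD replicate 6, 228 without NCD replicate 8, 343 without HFD replicate 2 and 99 without HFD replicate 6), the lone sample being assumed to vary like the others. The cause of these shifts was not tested.

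Signs turned only in values that were not past threshold. In the cold Mef2a had log2 fold changes of -0.089 with quantile normalization, -0.085 with median centring, -0.19 rescaled to the autosomal sum and -0.21 rescaled without mitochondrial genes, rRNA genes and Ucp1. Under HFD it had -0.060 with quantile normalization and -0.065 with median centring, and -0.086 (without NCD replicate 6) to 0.66 with 1 library left out. With 1 library left out under HFD, Mef2c had -0.58 to 0.19, Eya1 -0.23 to 0.15 and Pparg -0.12 to 0.998, and Eya1 had 0.0060 with a pseudocount of 0.01.

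The relation with the muscle marker score was below an adjusted p of 0.05 for 67 genes with a pseudocount of 0.1 and 61 with median centring, where Myf6 had adjusted p of 0.0609 and 0.103. The relation of Mef2a with the score was 0.024 as Spearman rho, 0.011 with median centring, 0.17 without the 2 farthest libraries and -0.47 to 0.10 with 1 library left out, and that of Pax3 was -0.094 to 0.36 with 1 library left out. The alternatives for genes of the partner lists and for the number of genes related to the score were chosen after seeing the data. No paired analysis was possible because the labels pair no libraries, as the temperature groups share no replicate number and the diet groups share only 1. The fits with library type, a split seen in the data, as a covariate are those given above. The values of Pax3, Pax7, Myf5 and Myod1 rested on 34.1 fragment equivalents or fewer a library.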
